A study of Mus musculus with 16 samples.

Results

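The MHC class II presentation pathway was followed in the small intestinal epithelium of suckling and weaned mice through 8 genes: Ciita, Cd74, the chains H2-Aa, H2-Ab1 and H2-Eb1, and the loading chains H2-DMa, H2-DMb1 and H2-DMb2. They were chosen by symbol, as the conventional class II chains, the peptide-loading chains, the invariant chain and the transactivator, and all 8 were found among the 24421 genes of the count files. All 8 were also among the 13429 genes tested. The libraries were made from wild-type C57BL6/J mice at P6 (postnatal day 6) and P36, with a segment of jejunum and a segment of ileum taken from each of 4 mice per age. That gave 16 libraries in 4 groups of 4, P6 jejunum, P6 ileum, P36 jejunum and P36 ileum. The epithelium was released from the opened segment with EDTA and mechanical force and was not sorted, so other cells of the mucosa could be carried along. Each age had 2 female mice, called mice 1 and 2 below, and 2 male mice, called mice 3 and 4. The numbers name different animals at the 2 ages.

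MHC class II molecules are heterodimers of an alpha and a beta chain that carry peptides from the endosomal pathway to the cell surface, where CD4 T cells read them. The invariant chain, encoded by Cd74, fills the groove of a newly made class II molecule and guides it to endosomes, where proteases trim it and the H2-DM heterodimer exchanges the remaining fragment for peptide. Ciita, the class II transactivator, does not bind DNA itself but is recruited to the X and Y boxes of class II promoters by the RFX and NF-Y factors. B cells, dendritic cells and macrophages carry class II constitutively, and enterocytes are known to gain it under interferon gamma.

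The conventional chains and the loading chains lie together in the MHC on chromosome 17. In the mm10 annotation of the files, the span from H2-DMa to H2-Eb1 is 194 kilobases and holds 6 of the genes: H2-DMa (chr17:34122832-34139101, plus strand), H2-DMb2 (chr17:34145416-34151095, plus), H2-DMb1 (chr17:34153191-34160229, plus), H2-Ab1 (chr17:34263227-34269418, plus), H2-Aa (chr17:34282751-34287771, minus) and H2-Eb1 (chr17:34305867-34316674, plus). Ciita lies on chromosome 16 (chr16:10480072-10527640, plus), and Cd74 also lies outside the MHC. The counts are of reads on exons, so no value below separates the promoters or isoforms of a gene.

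RefSeq promoter windows of GRCm38.p6, 300 bases long, were at hand for 5 of the 8 genes. The 140 bases before the annotated start are shown for the H2-DMb pair and for 2 conventional chains, because Ciita acts through these stretches. Capitals mark the Y box core (ATTGG on the printed strand) and, where it stands 20 to 36 bases before it on the same strand, the X1 box core (AGNAAC). A Y core on the opposite strand, such as the one 35 bases before the start of H2-Eb1, is left in lower case.
H2-DMb1, chr17:34153051-34153190, plus strand: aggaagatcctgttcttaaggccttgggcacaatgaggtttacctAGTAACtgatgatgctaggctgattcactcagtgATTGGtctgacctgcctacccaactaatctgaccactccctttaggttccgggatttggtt
H2-DMb2, chr17:34145109-34145248, plus strand: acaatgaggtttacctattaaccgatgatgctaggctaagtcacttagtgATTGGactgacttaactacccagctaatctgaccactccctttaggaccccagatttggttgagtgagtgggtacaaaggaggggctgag
H2-Eb1, chr17:34305727-34305866, plus strand: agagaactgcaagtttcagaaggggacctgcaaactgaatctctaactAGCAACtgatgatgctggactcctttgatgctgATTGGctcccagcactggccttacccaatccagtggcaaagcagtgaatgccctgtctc
H2-Aa, chr17:34287824-34287963, minus strand: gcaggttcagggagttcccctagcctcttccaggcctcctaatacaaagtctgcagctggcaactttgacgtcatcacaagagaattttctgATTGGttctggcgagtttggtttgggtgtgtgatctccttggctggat
The spaced pair of cores was found in the windows of H2-DMb1, with 28 bases between them, and H2-Eb1, with 27 bases between them. It was found in 0.907% of all 32851 promoter windows of the table. H2-Aa and H2-DMb2 held the Y core and not these X1 letters, which says nothing about whether RFX binds there. Of the 2 windows listed for H2-DMa, 1 held a Y core, 198 bases before the start, and neither held the spaced pair. A Y core alone, on either strand, stood in 37.4% of all windows and an X1 core alone in 48.1%. The other class II genes H2-Oa, H2-Ob and H2-Eb2 also held the spaced pair. A match of letters is a description of the window and no evidence that a factor sits there.

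Library totals ran from 12159237 to 25947276 counts. A gene's level is given as CPM, counts per 1e6 of the library total after TMM scaling. At P6 a library held between 4 and 9 counts of Ciita in the jejunum and 2 to 13 in the ileum, against 118 to 757 at P36. At P6 1 ileum library, mouse 2, carried smooth muscle and connective tissue transcripts (Myh11, the smooth muscle myosin heavy chain, 80.5 CPM, against at most 0.736 in the other P6 ileum libraries) and macrophage transcripts (C1qa 4.39 CPM against at most 0.163). Another P6 ileum library, mouse 4, had a summed level of 8 epithelial markers of 4055 CPM, against 6624 to 7049 CPM in the rest of its group. Values without them are given beside the age and regional results that they move.

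The alpha chain gene H2-Aa was low at P6 and high at P36. In the P6 jejunum it lay at 1.35, 2.63, 1.94 and 2.54 CPM in mice 1 to 4, and in the P6 ileum at 2.07, 14.6, 1.57 and 5.15 CPM. At P36 the jejunum held 108, 478, 44.6 and 40.9 CPM and the ileum 173, 279, 32.1 and 36.6 CPM. The lowest P36 library stood above the highest P6 library of the same region in both regions. The log2 fold change from P6 to P36 was 6.31 ± 1.07 (SE) for jejunal libraries (edgeR quasi-likelihood test, Benjamini-Hochberg adjusted p = 0.000137) and 4.46 ± 0.97 in the ileum (edgeR, adjusted p = 0.00108).

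H2-Ab1, which encodes the beta chain that pairs with H2-Aa, followed the same course. It lay at 1.70, 3.75, 1.26 and 3.11 CPM in the P6 jejunum and at 1.43, 10.1, 1.79 and 2.89 CPM in the P6 ileum. It reached 152, 391.5, 81.2 and 82.1 CPM in the P36 jejunum and 184, 287, 43.8 and 52.9 CPM in the P36 ileum. The ages did not overlap in either region, and the log2 fold change was 6.16 ± 0.87 in the jejunum (edgeR, adjusted p = 2.13e-05) and 5.11 ± 0.82 in the ileum (edgeR, adjusted p = 7.4e-05).

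H2-Eb1 encodes the beta chain of the second conventional class II molecule. Mice of the b haplotype, C57BL/6 among them, make no matching E alpha chain. Its levels were 1.27, 2.19, 1.21 and 1.48 CPM in the P6 jejunum and 0.839, 10.3, 1.41 and 1.62 CPM in the P6 ileum. They were 89.2, 234, 47.6 and 43.7 CPM in the P36 jejunum and 106, 184, 31.5 and 34.7 CPM in the P36 ileum. H2-Eb1 thus rose with the A chains, with a log2 change of 6.07 ± 0.92 in the jejunum (edgeR, adjusted p = 4.26e-05) and 4.63 ± 0.84 in the ileum (edgeR, adjusted p = 0.000241).

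Cd74, the invariant chain, was the most abundant of the 8 transcripts at P36. It held 2.70, 6.11, 2.63 and 4.55 CPM in the P6 jejunum and 4.10, 31.7, 6.51 and 5.20 CPM in the P6 ileum. At P36 it held 399, 1364, 209 and 159.7 CPM in the jejunum and 634, 1151, 166 and 169.6 CPM in the ileum. The ages did not overlap in either region. Its log2 fold change was 7.05 ± 1.02 in the jejunum (edgeR, adjusted p = 2.8e-05) and 5.47 ± 0.94 in the ileum (edgeR, adjusted p = 0.000145).

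The loading chains H2-DMa and H2-DMb1, whose products form the H2-DM heterodimer, started from different levels. H2-DMa lay at 2.05, 1.07, 1.94 and 1.15 CPM in the P6 jejunum and at 2.12, 3.83, 2.82 and 0.736 CPM in the P6 ileum. At P36 it lay at 26.8, 67.8, 16.7 and 17.9 CPM in the jejunum and at 37.7, 56.5, 15.1 and 13.5 CPM in the ileum. Its fold change was the smallest of the 8 in the jejunum, at 4.37 ± 0.63 on the log2 scale (edgeR, adjusted p = 2.45e-05), and it was 3.68 ± 0.60 in the ileum (edgeR, adjusted p = 8.5e-05).

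H2-DMb1 was near the limit of detection at P6, with 2 to 8 counts per jejunum library and 4 to 28 per ileum library. That corresponds to 0.262, 0.357, 0.105 and 0.335 CPM in the jejunum and 0.395, 1.21, 0.217 and 0.245 CPM in the ileum. At P36 it stood at 22.6, 64.3, 10.0 and 11.5 CPM in the jejunum and 33.4, 52.6, 9.48 and 8.86 CPM in the ileum. The log2 fold change was 6.63 ± 0.88 in the jejunum (edgeR, adjusted p = 1.19e-05) and 5.60 ± 0.82 for ileal libraries (edgeR, adjusted p = 2.89e-05). Per length, H2-DMa exceeded H2-DMb1 in every P6 library, by a ratio of 6.34 ± 5.59 (SD, n = 4) in the jejunum and 4.75 ± 3.64 in the ileum. At P36 the ratio was 1.06 ± 0.23 and 1.03 ± 0.20, and the lowest P6 ratio (2.32 in each region) lay above the highest P36 ratio (1.29). H2-DMb1 and its neighbor H2-DMb2 are close paralogs, so reads that fit both may be missing from either count.

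H2-DMb2, the second beta gene of H2-DM, behaved apart from the other 7. In the P6 jejunum 2 libraries had 1 count each and 2 libraries had 0, which allows up to 0.134 CPM in mouse 2 and 0.144 CPM in mouse 4 at a limit of 3 counts per library. The P6 ileum held 2 to 7 counts per library, or 0.0987, 0.302, 0.217 and 0.196 CPM. The P36 jejunum held 0.824, 0.132, 2.87 and 1.28 CPM and the P36 ileum 0.276, 0.680, 2.61 and 2.77 CPM. Summed over the groups, 105 counts at P36 stood against 2 at P6 in the jejunum, a ratio of 55.5 with an exact 95% interval of 15.0 to 464 that covers counting error only. The fitted age change passed the test in the jejunum (edgeR, log2 fold change 5.44 ± 1.11, adjusted p = 0.000698) and in the ileum (edgeR, 2.91 ± 0.84, adjusted p = 0.00816). The ileal ages overlapped, since mouse 1 at P36 lay below mouse 2 at P6.

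Ciita, the transactivator, was almost silent at P6. It held 0.393, 0.178, 0.263 and 0.239 CPM in the P6 jejunum and 0.0987, 0.560, 0.271 and 0.294 CPM in the P6 ileum. It held 9.89, 33.4, 9.25 and 7.73 CPM in the P36 jejunum and 12.5, 24.9, 8.00 and 9.34 CPM in the P36 ileum. The log2 fold change was 5.78 ± 0.62 in the jejunum (edgeR, adjusted p = 1.14e-06) and 5.43 ± 0.61 in the ileum (edgeR, adjusted p = 1.91e-06), the smallest adjusted p of the 8 in each region.

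**Figure D1:**
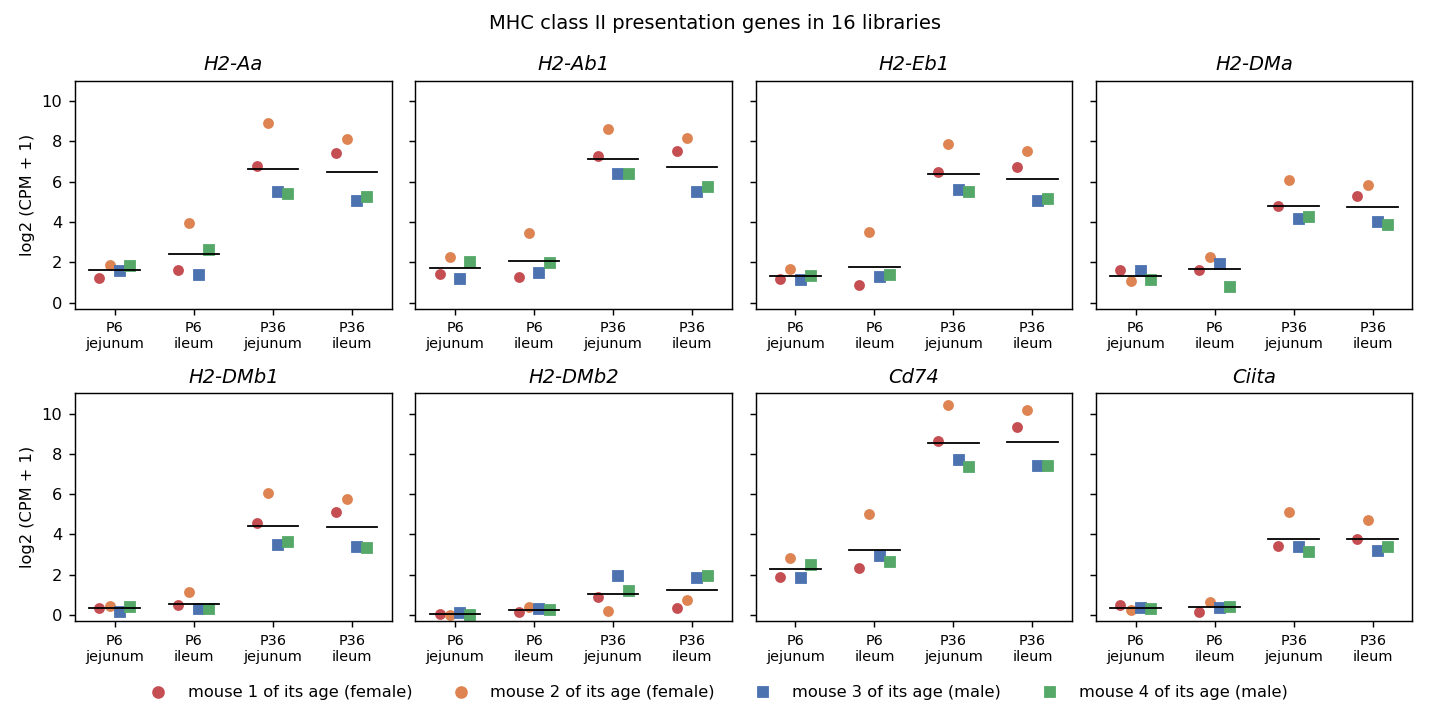
Level of each gene in the 16 libraries, as log2 (CPM + 1), with circles for female mice, squares for male mice and a bar at the group mean (n = 4). The 7 genes other than H2-DMb2 stand higher at P36 than at P6 in every library of a region. H2-DMb2 overlaps between the ages in the ileum.

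All 8 genes were thus called higher at P36 in the jejunum, where 7.86% of the tested genes were called higher, and all 8 in the ileum, where 6.4% were. A call required an adjusted p below 0.05 and a log2 fold change beyond 2. The median log2 fold change of the 8 was 6.11 in the jejunum and 4.87 in the ileum, beside -0.01 and -0.03 over all tested genes. The 7 genes other than H2-DMb2 did not overlap between the ages in either region, as 30.9% (jejunum) and 20.8% (ileum) of tested genes stood higher at P36 without overlap. For H2-DMb2 the jejunal ages could not be told apart library by library, since the limit at 0 counts in P6 mouse 4 (0.144 CPM) exceeded P36 mouse 2 (0.132 CPM, 3 counts). The ileal comparison held 8 calls without P6 ileum mouse 2, without mouse 4 and without both. Without mouse 2 the ileal median was 6.01, without mouse 4 it was 4.68 and without both it was 6.26, so the lower ileal median rested on mouse 2. Without that library the log2 change was 5.46 for H2-Aa, 6.12 for H2-Ab1, 6.10 for H2-Eb1, 4.02 for H2-DMa, 6.47 for H2-DMb1, 3.17 for H2-DMb2, 6.65 for Cd74 and 5.92 for Ciita. These libraries were chosen for leaving out after seeing the data. Leaving out P36 mouse 2, the highest library of 7 genes in each region, brought the log2 fold change of H2-Aa to 4.93 (jejunum) and 3.78 (ileum). In bulk libraries, more cells with class II transcripts and more transcript per cell cannot be told apart.

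Between the regions, 0 of the 8 genes were called at either age. At P6 the 7 genes other than H2-DMb2 had overlapping regional values, and 0 of the 8 passed, where 6.5% of tested genes were called in either direction. Dropping the fold minimum left 0 of 8 past an adjusted p of 0.05 by edgeR and 0 by DESeq2, against 25.9% of tested genes by edgeR. At an unadjusted p below 0.05, 37.7% of tested genes passed by edgeR, and 1 of the 8 passed by each tool. That gene was H2-DMb2, whose 4 ileal values as listed stood above the 4 jejunal values, as in 15.1% of tested genes. The limits at 0 counts in the jejunum (0.134 and 0.144 CPM) exceed the lowest ileal value (0.0987 CPM), so separation of the libraries is not shown. The jejunum held 2 counts and the ileum 17, an ileum-to-jejunum ratio of 8.81 (exact 95% interval 2.09 to 78.6, counting error only). The fitted log2 difference was -2.83 ± 1.27 (edgeR, adjusted p = 0.115), and with sex as a covariate it passed (-2.99, edgeR, adjusted p = 0.0472).

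Cd74 was higher in the ileum than in the jejunum in 4 of 4 mice at P6. The jejunum-to-ileum ratio ran from 0.193 to 0.875 across the mice. Its log2 difference was -1.57 ± 0.83 (edgeR, adjusted p = 0.183). With the mouse as a replicate block it was -1.14 (edgeR, adjusted p = 0.0323), past the threshold but under the fold minimum. Without P6 ileum mouse 2, the library that also held smooth muscle transcripts, the difference without the block was -0.39. That library was the highest of its group for all 8 genes, and without it the P6 regional difference turned positive for H2-Ab1 (0.27), H2-Eb1 (0.26) and Ciita (0.28).

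At P36, 0 of 8 genes differed between the regions, where 3.6% of tested genes were called, and 0 of 8 passed with no fold minimum, against 16.1%. At an unadjusted p below 0.05 the count was also 0 by edgeR and by DESeq2, where 29% of tested genes passed by edgeR. The log2 differences, jejunum over ileum, lay between -0.30 for H2-DMb2 and 0.37 for H2-Aa. The 95% interval was -1.40 to 2.14 for H2-Aa, -1.13 to 1.76 for H2-Ab1, -1.64 to 1.65 for Cd74 and -0.84 to 1.12 for Ciita (log2). These intervals come from the fit without the mouse as a block, and that fit does not exclude regional differences within them. With the mouse as a replicate block the H2-Aa difference was 0.19 and did not pass. Within mice, jejunal H2-Aa was 1.71 times the ileal level in mouse 2 and 0.626 times in mouse 1. The age change passed the test for a difference between the regions in 0 of the 8 genes (region-by-age interaction, edgeR), where 8.69% of tested genes passed. The smallest adjusted p was 0.321, for H2-DMb2. None had an unadjusted p below 0.05 by edgeR or DESeq2, where 22.9% of tested genes did by edgeR.

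**Figure D2:**
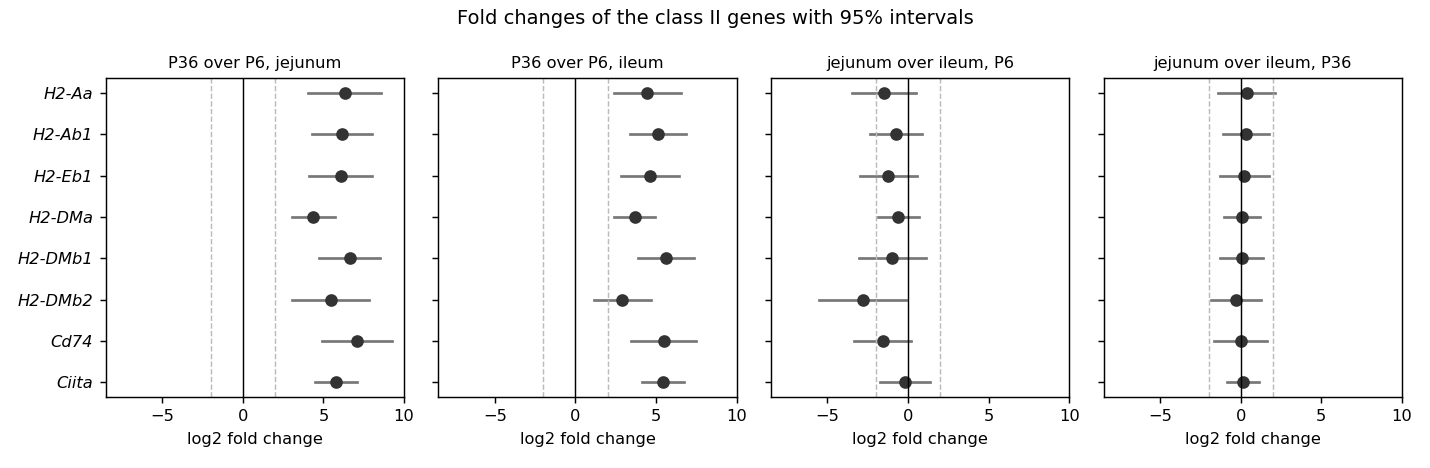
Log2 fold change of each gene in the 4 comparisons, with 95% intervals from the edgeR fit and dashed lines at the fold minimum of 2. The estimated age changes all lie above 2, and the interval of H2-DMb2 in the ileum reaches down to 1.12. The regional differences at P36 center between -0.30 and 0.37 with intervals across 0.

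Per length of the annotated exons, as CPM per kilobase (RPKM), the order of the genes at P36 was the same in both regions. Cd74 led with 376 ± 398 RPKM (SD, n = 4, jejunum) and 375 ± 331 RPKM (ileum). H2-Aa (157 ± 196 and 122 ± 111) and H2-Ab1 (148 ± 123 and 119 ± 97.4) came next, followed by H2-Eb1 (62.0 ± 53.4 and 53.3 ± 43.1). H2-DMb1 (21.1 ± 19.8 and 20.3 ± 16.4) and H2-DMa (19.5 ± 14.5 and 18.5 ± 12.4) lay below them, and Ciita (2.51 ± 2.04 and 2.28 ± 1.29) and H2-DMb2 (1.62 ± 1.48 and 2.02 ± 1.64) were lowest. H2-DMa and Ciita did not overlap in either region, and every other pair of neighbors in this order overlapped between mice. Within a library some of these pairs kept 1 direction. Cd74 exceeded H2-Aa in all 8 P36 libraries, by 2.15 to 3.91 times, and H2-Eb1 stood at 0.381 to 0.515 times H2-Ab1. H2-Aa and H2-Ab1 did not differ in a fixed direction, with ratios from 0.556 to 1.36, and neither did H2-DMa and H2-DMb1, with ratios from 0.816 to 1.29, or Ciita and H2-DMb2, with ratios from 0.401 to 33.1. Ciita stood at 0.0129 to 0.0364 times H2-Ab1.

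At P6 the mean of Cd74 was again the highest, at 2.83 ± 1.18 RPKM (jejunum) and 8.39 ± 9.37 RPKM (ileum). The ileal mean was carried by mouse 2 (22.4 RPKM) and was 3.72 ± 0.85 RPKM (SD, n = 3) without it. The excess of Cd74 over H2-Aa was smaller in the jejunum at P6 (1.41 ± 0.31, from 1.02 to 1.75) than at P36 (2.86 ± 0.57, from 2.15 to 3.53), with no overlap. The ileal ratio was 1.76 ± 0.99 at P6 and 3.32 ± 0.49 at P36, and it overlapped. Its lowest P6 value was 0.763, a library in which H2-Aa exceeded Cd74.

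Among the P36 mice, 7 of the genes varied together. Cd74, Ciita, H2-DMa, H2-DMb1, H2-Eb1, H2-Ab1 and H2-Aa were each highest in mouse 2 and second in mouse 1 in both regions. The female libraries stood above the male libraries for 7 of 8 genes in the jejunum, where 22.1% of tested genes did so, and for the same 7 in the ileum, where 13.9% did. In both regions together 6.14% of tested genes showed this order. Only 2 mice of each sex were sampled at P36, so sex and mouse cannot be told apart, and no test was made. The highest library exceeded the lowest by 11.7 times for H2-Aa, 8.54 times for Cd74 and 4.06 times for H2-DMa in the jejunum, and by 8.70, 6.94 and 4.20 times in the ileum. As deviations from the group mean over the 8 P36 libraries, the 21 pairs of these genes had Pearson's r between 0.905 and 0.997. The 8 libraries come from 4 mice, so the points are not independent.

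H2-DMb2 ran the other way. It was lower in both female mice than in both male mice in each region, as were 21.9% (jejunum) and 20.8% (ileum) of tested genes, and its r with the other 7 genes over the same 8 libraries lay between -0.919 and -0.722. Its values ran with those of B cell and other leukocyte markers. Cd79a, a signaling chain of the B cell receptor, had 1.53, 0.0441, 8.98 and 3.46 CPM in the P36 jejunum and 0.221, 2.04, 7.47 and 8.94 CPM in the P36 ileum. The r of H2-DMb2 was 0.989 with Cd79a and 0.902 with Ms4a1, the gene of a B cell surface antigen, 0.927 with the pan-leukocyte gene Ptprc and 0.782 with Cd3e, a chain of the T cell receptor complex. With the class II genes H2-Ob and H2-Eb2 it was 0.972 and 0.995. H2-Ob encodes a chain of H2-DO, which restrains H2-DM and is known from B cells. These correlations are descriptions over 8 libraries at low counts.

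**Figure D3:**
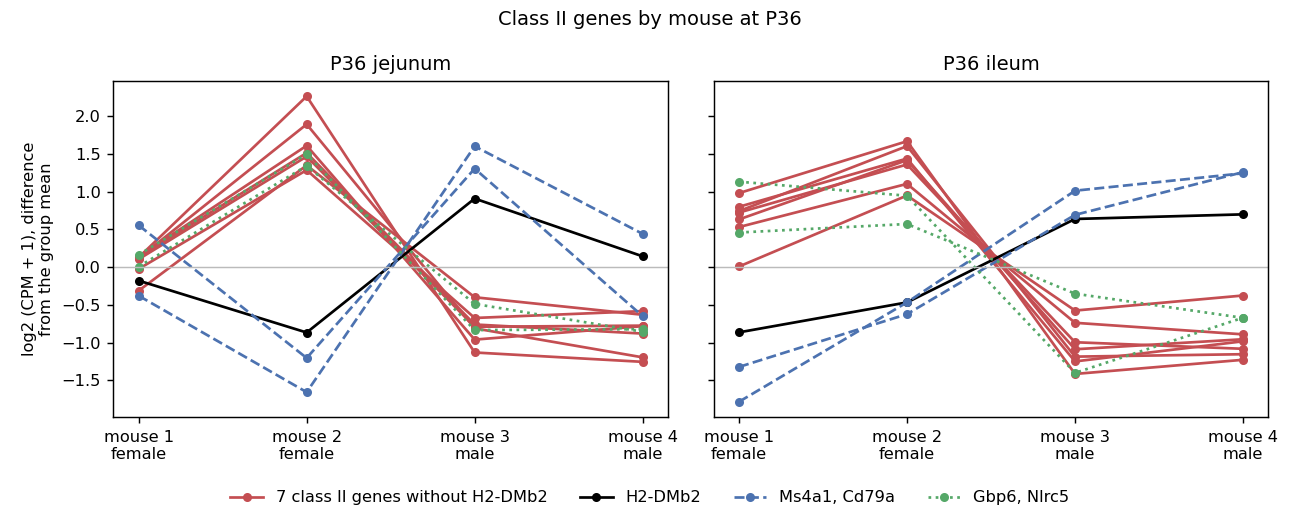
Level of each gene in the 4 P36 mice as its difference from the group mean on the log2 (CPM + 1) scale, for the jejunum and the ileum. Red lines are the 7 class II genes without H2-DMb2, black is H2-DMb2, blue dashes are the B cell genes Ms4a1 and Cd79a, and green dots are Gbp6 and Nlrc5. The red lines peak in mouse 2 in both regions, and the black and blue lines are lowest in mouse 2 of the jejunum and mouse 1 of the ileum.

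Markers of several cell types also rose with age. Among epithelial lineages, the 4 Paneth cell markers were all called higher in both regions (median log2 fold changes 5.08 and 5.16), as were 3 and 2 of 5 goblet cell markers and 3 and 1 of 3 tested tuft cell markers. Without P6 ileum mouse 2 the ileal counts were 4 for goblet and 2 for tuft cell markers, and without mice 2 and 4 the tuft count was 3. Of 3 tested plasma cell markers, 2 were called higher in each region. Among cells that carry class II constitutively, B cell markers rose in both regions. Dendritic cell markers were called higher mainly in the jejunum, and macrophage markers went both ways. Of 9 B cell markers 8 were tested, and 8 were called higher at P36 in jejunal and 6 in ileal libraries (3 without P6 ileum mice 2 and 4). Their summed level was 0.262 to 0.578 CPM in the P6 jejunum, 1.74 to 4.61 in the P6 ileum, 2.43 to 43.6 in the P36 jejunum and 2.65 to 50.8 in the P36 ileum. Pax5, Cr2 and Ms4a1 were at 0 in every P6 jejunum library. The 5 pan-leukocyte markers summed to 1.83 to 4.64 and 5.64 to 17.5 CPM at P6 and to 6.79 to 74.2 and 5.86 to 49.9 CPM at P36, with 5 of 5 called higher in jejunal and 0 of 5 in ileal libraries (2 without P6 ileum mouse 2). The 9 dendritic cell markers summed to at most 9.34 CPM in any library, and 4 of them (Ccr7, Flt3, Itgax and Siglech) were tested, with 4 called higher (jejunum) and 1 called higher (ileum; 3 without P6 ileum mice 2 and 4). Xcr1 and Clec9a, markers of cross-presenting dendritic cells, were too low to test. Of 10 macrophage markers 6 were tested. Their median log2 change was 0.86 in the jejunum and -0.43 in the ileum (1.11 without P6 ileum mouse 2). Lyz2 was called higher in the jejunum (for ileal libraries, when P6 mice 2 and 4 were left out). Csf1r was called lower in both regions, from at least 152 CPM at P6 to at most 3.55 CPM at P36. In the P6 jejunum Csf1r averaged 455 CPM, while C1qa and C1qb averaged 0.45 and 0.50 CPM. Which cells held the Csf1r transcripts was not measured. T cell and intraepithelial lymphocyte markers, 11 of 14 tested, were called higher for 10 (jejunum) and 1 (ileum; 0 without P6 ileum mice 2 and 4). The part of these cells in the age result was not tested.

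Among the P36 libraries the order of the class II genes other than H2-DMb2 was not that of the B cell or pan-leukocyte sums. H2-DMb2 ran with the B cell markers, as given above. Mouse 2 in the jejunum had the highest H2-Aa, Cd74 and Ciita of all 16 libraries and the lowest B cell sum (2.43 CPM, 4 of 9 markers at 0) and the lowest pan-leukocyte sum (6.79 CPM) of its group. Its dendritic cell sum (3.35 CPM) was not the lowest, lying between mouse 3 (9.34 CPM) and mouse 4 (2.93 CPM). In the ileum the order of the pan-leukocyte sum, at 5.86, 14.5, 44.4 and 49.9 CPM in mice 1 to 4, put both female mice below both male mice. That jejunal library held 1364 CPM of Cd74. Epithelial markers were high throughout (Epcam at least 1137 CPM in each library). Which cells held the class II transcripts was not measured.

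Ciita is brought to class II promoters by the RFX and NF-Y factors. Of the 7 genes of RFX, NF-Y and related factors listed, 0 were called in either direction in either region, and their median log2 fold change with age was 0.05 in the jejunum and 0.17 in the ileum. Rfx5, the DNA-binding subunit of RFX, fell by 1.34 on the log2 scale among jejunal libraries (SE 0.12, edgeR, adjusted p = 1.46e-07), under the fold minimum, from between 23.1 and 24.6 CPM at P6 to between 8.82 and 10.9 CPM at P36. The ileal libraries held 11.6 to 13.8 CPM at P6 and 9.79 to 10.6 CPM at P36. Nfyc, a subunit of NF-Y, was higher at P36 by 0.30 in the jejunum (edgeR, adjusted p = 0.0191) and 0.57 in the ileum (edgeR, adjusted p = 0.000204).

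Lysosomal and endosomal enzymes, most of them proteases that process the invariant chain or antigen, were lower at P36. The list also holds Ifi30, a thiol reductase, and Asah1, an acid ceramidase. All 8 listed genes were lower at P36 at an adjusted p below 0.05 in both regions, beside 26.9% and 30.1% of tested genes. With the fold minimum 3 were called lower in the jejunum (background 8.59%) and 4 in the ileum (background 10%). Ctsl (cathepsin L) fell from between 8409.9 and 14706 CPM in the P6 jejunum to between 12.1 and 30.1 CPM at P36, a log2 change of -9.07 ± 0.40 (edgeR, adjusted p = 6.68e-11). Lgmn, the asparaginyl endopeptidase, changed by -6.52 ± 0.27 (jejunum) and -6.53 ± 0.27 (ileum) (edgeR, adjusted p = 4.81e-11 and 5.41e-11). Ctss (cathepsin S), known as the main invariant chain protease of professional presenting cells, changed by -1.89 ± 0.18 and -1.75 ± 0.18 (edgeR, adjusted p = 3.61e-07 and 8.25e-07), under the fold minimum.

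Interferon gamma itself was barely detected, at 0 to 0.113 CPM in the 16 libraries. Of all tested genes, 7.86% (jejunum) and 6.4% (ileum) were called higher, and 8.59% and 10% were called lower. Among 13 interferon gamma induced GTPases and chemokines, 12 were tested. In the jejunum 3 of them were called higher and 1 lower, and in the ileum 4 higher and 1 lower. The ileal count of genes called higher was 6 without P6 ileum mouse 2 and 7 without mice 2 and 4. Gbp2 rose by 4.96 ± 0.80 in the jejunum (edgeR, adjusted p = 7.74e-05) and 2.62 ± 0.64 in the ileum (edgeR, adjusted p = 0.00269). Ubd, a ubiquitin-like modifier, rose by 2.94 ± 0.51 and 2.77 ± 0.56 (edgeR, adjusted p = 0.000171 and 0.000588). Gbp7 fell by 2.35 and 2.95 on the log2 scale (edgeR, adjusted p = 0.000227 and 3.23e-05). Of the 8 genes of interferon gamma signaling, 0 were called in the jejunum and 1, Socs1, in the ileum, where it was called higher (edgeR, adjusted p = 0.00152). Without P6 ileum mouse 4 its log2 change of 1.92 was under the fold minimum.

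The class I pathway loads cytosolic peptides. Of its 16 listed genes, 0 were called in the jejunum and 5 were called higher in the ileum, where 6.4% of tested genes were. In the ileum Nlrc5, the class I transactivator and a relative of Ciita, rose by 3.68 ± 0.76 (edgeR, adjusted p = 0.000665). Psmb8 rose by 2.90 ± 0.40, Psmb10 by 2.73 ± 0.49, Psmb9 by 2.28 ± 0.33 and Tap1 by 2.01 ± 0.35 (edgeR, adjusted p between 1.51e-05 and 0.000205). Without P6 ileum mouse 4, 3 were called, as Tap1 (1.81) and Psmb9 (1.997) came under the fold minimum. Nlrc5 already differed between the regions at P6, by 2.47 ± 0.74 in favor of the jejunum (edgeR, adjusted p = 0.0212). It held 3.88 to 11.0 CPM there against 0.597 to 2.24 CPM in the ileum.

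Among the remaining class II genes H2-Ob and H2-Eb2 were tested and both were called higher at P36 in the jejunum and neither in the ileum. Without P6 ileum mouse 4, H2-Eb2 was called in the ileum too (edgeR, 3.98 ± 1.59, adjusted p = 0.0467). They stayed at 0 to 5.70 CPM in every library. Of 4 tested costimulation genes, 0 rose and Cd80, a ligand of CD28, fell in both regions (-4.01 ± 1.07 and -5.23 ± 1.40, edgeR, adjusted p = 0.00516 and 0.00497), from at most 2.41 CPM at P6 to at most 0.18 CPM at P36. Without P6 ileum mice 2 and 4 the ileal adjusted p was 0.052 (edgeR). Cd86 and Cd40, the other main costimulators, lay at or below 1.03 CPM throughout. March1 and March8 encode ligases that tag class II for turnover. March1 rose in the jejunum (3.38 ± 1.33, edgeR, adjusted p = 0.0436) from at most 0.158 to at most 1.30 CPM. Without P6 ileum mouse 2 it was called in the ileum too (edgeR, 4.10 ± 1.36, adjusted p = 0.0193). March8 was lower by 0.56 and 1.05 on the log2 scale (edgeR, adjusted p = 0.00955 and 6.14e-05).

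**Figure D4:**
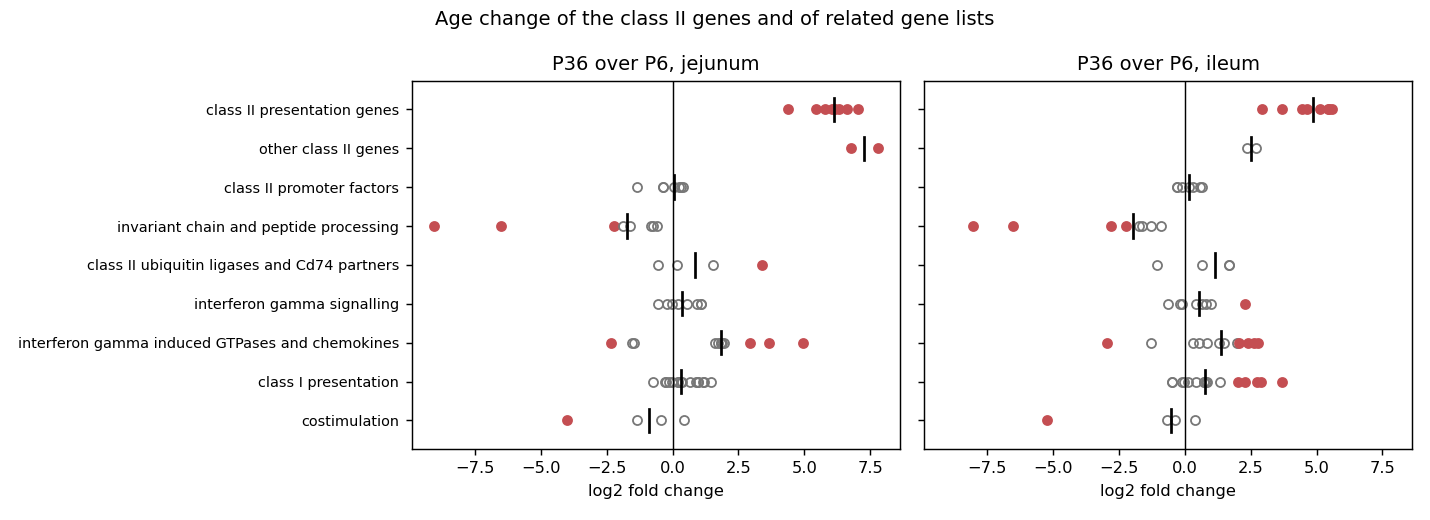
Log2 fold change from P6 to P36 of each tested gene, by list, in the jejunum and the ileum. Filled points passed the test and the fold minimum, open points did not, and black bars are list medians. The 8 class II genes lie between 2.91 and 7.05 and the processing enzymes below 0. The promoter factors lie between -1.34 (jejunum) and 0.65 (ileum), with medians of 0.05 and 0.17.

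The genes most like the 8 in their pattern were taken from 12124 genes by the correlation of log2 (CPM + 1) with the mean of the 8. Over all 16 libraries they were Inf2, Abhd6, Ifitm3, Bag3, Gm684, G6pdx, Ttc39b, Batf2, Cpne2 and Edn3, with Pearson's r from 0.978 to 0.954. Batf2 and Ifitm3 are known as interferon-induced genes. Batf2 averaged 0.34 and 0.36 CPM at P6 and 51.6 and 61.7 CPM at P36 in jejunum and ileum. Over the 8 P36 libraries, as deviations from the group mean, they were Kat6a, Zdhhc21, Zfp780b, Fam120a, Ino80, Prrc2c, Otud4, Rev1, Gbp6 and Nlrc5, with r from 0.983 to 0.950. Gbp6 is an interferon-induced GTPase. It stood at 3.82, 11.2, 2.42 and 1.65 CPM in the P36 jejunum and at 5.69, 6.24, 2.82 and 2.06 CPM in the P36 ileum, and over age it went down in the jejunum (log2 change -1.46, edgeR, adjusted p = 0.0231) while the class II genes went up. Nlrc5 stood at 10.1, 26.8, 4.53 and 4.58 CPM and at 25.1, 21.9, 3.51 and 6.49 CPM.

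At P6 the mice fell into pairs by the first part of their labels, which mice 1 and 3 share and mice 2 and 4 share. What it stands for is not given in the sources used here. In the P6 jejunum the pairs did not overlap for the 7 genes other than H2-DMb2, but neither did they for 53.9% of tested genes. H2-DMb2 had 1 count in each of mice 1 and 3 and 0 in mice 2 and 4, which does not separate them. Cd74, H2-DMb1 and the chains H2-Ab1, H2-Eb1 and H2-Aa were higher in mice 2 and 4 (28.5% of tested genes were), and H2-DMa and Ciita in mice 1 and 3 (25.4%). In the ileum Ciita, H2-Aa, H2-Ab1 and H2-Eb1 were higher in mice 2 and 4, where 20.6% of tested genes were. For Cd74 the pairs held 2.63 to 2.70 and 4.55 to 6.11 CPM in the jejunum, against at least 159.7 CPM at P36.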

How the data were processed

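The authors prepared stranded mRNA libraries (Kapa), sequenced them on a NovaSeq, used Trimmomatic 0.38 for trimming and STAR (2.5.3 in the submitters' processing notes) for alignment to mm10, and counted read pairs on exons, by gene and with the reverse strand setting, with featureCounts (Subread 1.6.3). The deposited values are raw counts of 24421 genes per library. The files' lengths of the merged exons, deposited beside the counts, gave RPKM.

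Genes kept by filterByExpr (13429) went into edgeR 4.0.16 (quasi-likelihood test; R 4.3.3) after TMM scaling, with 4 group means over all 16 libraries. SE is the log2 fold change divided by the square root of F. The Benjamini-Hochberg adjustment ran across the tested genes. Simulated counts with known changes served to test the script. Alternatives included DESeq2 1.42.0, limma 3.58.1 and leaving out each library. The jejunum and ileum of a mouse carry the same mouse label. Their deviations from the group means had r of 0.151 to 0.425 at P6 and 0.332 to 0.449 at P36. Between mice r ran from -0.334 to 0.166 at P6, an overlap, and from -0.386 to 0.211 at P36. Deviations within a group cancel out, which by itself draws r between mice negative when r within mice is positive. The mouse was therefore the replicate block in an alternative fit. The main fit had no block and treated the regions of a mouse as independent libraries.

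The members, the gene lists (compiled by hand) and the naming rule were chosen with earlier results of these data known. Named are the 8 members, up to 5 called genes per list (lowest adjusted p first) and those whose role in the pathway is explained, and the 10 genes most alike by each correlation, at a mean CPM of at least 1. No pair of replicates was a copy (chi-square per gene 13.2 to 272). Csf1r, Lyz2, C1qa, C1qb and the markers named at 0 or as untested were added after their values were seen. Whether a mouse is a separate litter is not given. The p-values of the main fit measure the spread between libraries, with both regions of a mouse counted separately, and not the spread between litters.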

Additional observations from a re-analysis of the deposited data

Results flagged for a closer look

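By Dixon's test, 5 values stood farther from the other 3 of their group than its 95% critical value for 4 libraries allows, out of 32 groups of 4 examined. Chance alone flags about 1 group in 20 when the groups are independent and the values are normally distributed. Here the genes were correlated, and all 5 values came from P6 ileum mouse 2 or P36 jejunum mouse 2. That rate is therefore no measure of excess. In the P6 ileum, mouse 2 was the outlying library for H2-Ab1 (10.1 CPM, next 2.89), H2-Eb1 (10.3 CPM, next 1.62) and Cd74 (31.7 CPM, next 6.51). That library also held 426 CPM of smooth muscle, fibroblast and endothelial markers, against 19.5 to 44.3 CPM in the other P6 ileum libraries, and the highest macrophage markers C1qa and C1qb. Its dendritic cell sum was the highest of the group (3.92 CPM, next 1.72), as was its pan-leukocyte sum (17.5 CPM, next 15.4). Its B cell sum (4.18 CPM) lay below that of mouse 4 (4.61 CPM). The part of these transcripts in the class II values was not tested. In the P36 jejunum, mouse 2 was the outlying library for H2-Aa (478 CPM, next 108) and Ciita (33.4 CPM, next 9.89). The ileum of the same mouse was the highest of its group for both genes, at 279 and 24.9 CPM, without reaching the critical value.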

How the results depend on the processing

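The age calls in each region kept their direction and their side of the threshold under every alternative that tested the gene, including the libraries left out and the mouse as a replicate block. With a mean CPM of at least 1 as the filter, or only the 8 libraries compared, H2-DMb2 was not tested and 7 of 7 were called. The block changed no count of calls under the fold minimum. With the block, the ileal age change of H2-DMb2 was 2.37, only just on the called side of the adjusted p threshold of 0.05. At P6 between the regions, sex as a covariate gave 1 member called in place of 0 (H2-DMb2), and with no fold minimum 1 member passed with sex as a covariate and 1 with the replicate block (Cd74). Regional and interaction values that turned sign did so without passing the test, and the cause was not tested. Scaling by library totals, which moved the median of all genes at P36 from -0.04 to -0.18, gave -0.077 for H2-DMa, -0.10 for H2-DMb1, -0.15 for Cd74 and -0.018 for Ciita at P36, and the replicate block gave -0.044 for Cd74. Thinned counts gave 0.14 for Ciita at P6 and 0.066 for its interaction. Leaving out P6 ileum mice 2 and 4 together, chosen after seeing the data, gave 0.18 for H2-Aa, 0.59 for H2-Ab1, 0.44 for H2-Eb1 and 0.53 for Ciita at P6, and interactions of 0.27 for H2-Ab1, 0.21 for H2-Eb1 and 0.38 for Ciita. With each library left out in turn the P36 regional difference ran from -1.01 to 1.09 for H2-Aa, -0.44 to 0.94 for H2-Ab1, -0.57 to 0.87 for H2-Eb1, -0.59 to 0.57 for H2-DMa, -0.83 to 0.67 for H2-DMb1, -1.07 to 0.081 for H2-DMb2, -1.05 to 0.745 for Cd74 and -0.61 to 0.62 for Ciita. The P6 difference ran from -1.03 to 0.27 for H2-Ab1, -1.55 to 0.26 for H2-Eb1 and -0.51 to 0.28 for Ciita, and the interaction from -2.10 to 0.038 for H2-Eb1 and -0.84 to 0.41 for Ciita. TPM in place of RPKM kept the order of the 8 genes in all 4 groups. The low P6 counts of H2-DMb1, H2-DMb2 and Ciita limit every P6 comparison.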
